A study of Mus musculus with 18 samples.

Results

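The expression of 10 genes that carry a cell from G1 into S phase, out of 35865 genes listed under a single name, was described in regulatory T cells (Tregs) with and without the chromatin remodeller CHD8. The genes were chosen by name: the D-type cyclins Ccnd1, Ccnd2 and Ccnd3, their kinases Cdk4 and Cdk6, the E-type cyclins Ccne1 and Ccne2, their kinase Cdk2, the retinoblastoma gene Rb1 and the transcription factor gene E2f1. RNA-seq libraries came from 2 WT and 2 Chd8-/- mice (1 each), from CD4+ spleen cells that FACS had sorted for YFP. In Chd8-/- mice (labelled CHD8Flox/FloxFoxp3YFP-Cre) a YFP-Cre fusion expressed from the X-linked Foxp3 locus deletes the floxed Chd8 allele in Foxp3-expressing cells. The WT labels read CHD8flox/floxFoxp3YFP-Cre/+ and so name a floxed allele too, whereas the study's methods describe Chd8+/+ littermates that carry the same Cre. Both groups therefore share the Cre, which the labels give as heterozygous in WT. Read literally, the WT label matches females in which the study describes YFP+ Tregs as CHD8-deficient. The sorted WT cells would then lack CHD8 too, but the study's grouping into WT and Chd8-/- was used. The study describes sex-matched littermates 5 to 7 weeks old, with 1 male and 1 female per genotype. A male could not be heterozygous at an X-linked gene, so the WT label conflicts with a WT male. Which library came from which sex is not given by the labels. The treatment label of every sample, in both genotypes, is Poly IC injection, a step that the methods do not mention. The paper reports early, fatal inflammation in Chd8-/- mice, and Tregs that were activated and proliferated more. The genotypes may therefore differ in the health of the mice as well as in CHD8. The part of each in the RNA differences described here was not tested.

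Progress through G1 depends on cyclins, proteins that rise and fall through the cell cycle and switch on partner kinases. D-type cyclins with CDK4 or CDK6 begin the phosphorylation of RB, which otherwise holds E2F factors inactive, and cyclin E with CDK2 completes it, so that E2F can switch on the genes of DNA replication. In T cells this route couples antigen and interleukin-2 signals to division, with cyclin D2, cyclin D3 and CDK6 as the prominent early parts, while the inhibitors p21 and p27 restrain the cyclin-CDK complexes.

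Promoter windows of Cdk4, Cdk6 and Cdk2 are shown because they carry letters that E-box or E2F factors are known to bind. RefSeq promoter windows of GRCm38.p6 were matched for 6 of the 10 genes, with 2 windows for Ccnd3, and the 250 bases before the start of transcription that each window was built on were searched, on both strands, for CACGTG (an E-box, a palindrome) and for the E2F letters TTTCCCGC, TTTGGCGC, TTTGCCGC and TTTCGCGC. For Cdk4, Cdk2 and Ccne1 that start is the 5′ end of the annotated gene. For Cdk6 and E2f1 it is a start inside the annotated gene, 2889 and 466 bases from the 5′ end, so the sequence before the first start of these genes was not searched. The windows of Ccnd3 belong to its 5′ end and to a start 88416 bases further in. The E-box was added to the search after the expression values were seen. Matched letters are in capitals, and each sequence reads 5′ to 3′ towards the gene: Cdk4 at chr10:127063285-127063534 on the plus strand, Cdk6 at chr5:3343643-3343892 on the plus strand, and Cdk2 at chr10:128705052-128705301 on the minus strand.
Cdk4: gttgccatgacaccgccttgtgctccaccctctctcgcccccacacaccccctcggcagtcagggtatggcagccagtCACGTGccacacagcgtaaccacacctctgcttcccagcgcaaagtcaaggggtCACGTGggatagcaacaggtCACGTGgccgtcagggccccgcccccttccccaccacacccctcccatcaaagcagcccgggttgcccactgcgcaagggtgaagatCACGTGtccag
Cdk6: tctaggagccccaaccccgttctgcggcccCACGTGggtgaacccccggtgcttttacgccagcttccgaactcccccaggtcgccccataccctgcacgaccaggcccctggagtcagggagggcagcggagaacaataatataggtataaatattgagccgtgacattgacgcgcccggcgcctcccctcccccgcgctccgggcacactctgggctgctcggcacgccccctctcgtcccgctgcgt
Cdk2: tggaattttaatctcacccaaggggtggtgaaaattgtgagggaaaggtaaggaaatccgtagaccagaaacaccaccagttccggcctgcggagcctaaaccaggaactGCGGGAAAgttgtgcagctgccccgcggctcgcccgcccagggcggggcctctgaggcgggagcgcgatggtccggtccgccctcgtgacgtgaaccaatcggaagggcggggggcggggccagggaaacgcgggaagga
The Cdk4 window holds CACGTG 4 times, beginning 172, 118, 98 and 11 bases before the start. The Cdk6 window holds it 1 time, 220 bases before the inner start and within the annotated gene, and the windows of Cdk2, Ccne1, E2f1 and Ccnd3 hold none. Of 32851 mouse windows of the same length, 6.02% hold CACGTG, and 7 windows hold it at least 4 times. For the E2F letters the match was a single GCGGGAAA, 140 bases before the start of Cdk2, against 1.86% of all windows. The searched windows had a GC content of 59.6 to 77.6%, against a median of 52.4% over all windows. These shares of all windows were not matched for GC content. The windows of Cdk4, Ccne1 and Ccnd3 and the inner windows of Cdk6 and E2f1 do not hold these letters, which says nothing about other sequence of these genes or about binding. Ccnd1, Ccnd2, Ccne2 and Rb1 were not matched.

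Chd8 itself, the deleted gene (Entrez 67772, chr14:52198151-52258042, minus strand), was listed at 24.7 and 27.6 TPM in WT and at 14.9 and 11.4 TPM in Chd8-/- Tregs. TPM is a level per length of transcript, scaled to the same total in each library. Both Chd8-/- libraries lay below both WT libraries (log2 fold change -0.95, SE 0.29, adjusted p = 0.455, limma). These are values for the whole gene, and exons outside the floxed part are counted with it. Of its exon bases, 7.0% overlap Gm26590 on the other strand. The source of the level that remained in Chd8-/- libraries was not tested. Cdkn1a, which encodes the CDK inhibitor p21, was listed at 0.2 and 0.3 TPM in WT and at 190.7 and 150.1 TPM in Chd8-/- libraries.

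The 8 markers chosen for Tregs summed to 3621.6 and 3736.8 TPM in WT and 4043.9 and 3374.5 TPM in Chd8-/-. Cd3e and Cd4 in this list are not specific to Tregs, and Cd3e was its highest member in each library. Foxp3 was listed at 202.8 and 215.4 TPM in WT and 232.1 and 205.3 TPM in Chd8-/-. Among the 8 markers, Ctla4 and Tnfrsf18 were higher and Cd4, Cd3e and Ikzf4 lower in both Chd8-/- libraries. Cd4 was listed at 403.4 and 431.8 TPM in WT and 326.2 and 323.6 TPM in Chd8-/-. The summed markers of other cells overlapped between the genotypes for myeloid, B, CD8 T and NK, and erythroid and platelet cells. Single markers did not all overlap: S100a8 was not above 0 in either WT mouse but had 5.3 and 16.5 TPM in Chd8-/-, Tyrobp at 135.2 and 184.5 TPM in WT and 29.5 and 128.4 TPM in Chd8-/-, and Alas2 at 15 and 21.5 TPM in WT and 8 and 7.5 TPM in Chd8-/-. The 8 myeloid markers summed to 334.5 and 405.3 TPM in WT, 62.7 in Chd8-/- replicate 1 and 1769.1 in Chd8-/- replicate 2, of which Lyz2 made 1360.3. The 6 erythroid and platelet markers summed to 324.6 and 309.9 TPM in WT, with 8.8 and 1585.5 in the respective Chd8-/- replicates, and Ppbp was at 0 in all 4 libraries. The 5 B cell markers listed in the table, of 6 chosen, gave 43.8 and 29.7 TPM in WT, 35.5 in Chd8-/- replicate 1 and 139.6 in Chd8-/- replicate 2, and the 6 CD8 T and NK cell markers gave 87.4, 56.8, 93.4 and 66.3 TPM. The Chd8-/- libraries thus lay on opposite sides of WT in the sums of these myeloid and erythroid markers. Fcer1g, Hbb-bs and Hbb-bt were at 0 in replicate 1. The part of these markers in the differences was not tested. In sorted bulk samples, fewer cells of a type and less RNA per cell cannot be told apart.

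All 10 genes passed the filter of at least 1 TPM in 2 or more libraries, as did 15240 genes in all. None of the 10 was called, that is, none reached an adjusted p of 0.05 with a log2 fold change of at least 1, and neither did any other gene (0% of genes tested). At an unadjusted limma p under 0.05, Cdk6 was the single gene of the 10, on the higher side, where 595 genes (3.9%) lay, against 960 genes (6.3%) on the lower side. By size alone, 1 of the 10 was past a log2 fold change of 1 on the higher side (5.12% of genes tested) and 0 on the lower side (11.6%). Both Chd8-/- libraries were above both WT libraries for Cdk6, Cdk4 and Ccne1 (3 of 10, against 14.8% of genes tested), and below them for Ccnd1 and Rb1 (2 of 10, against 27.8%). The median log2 fold change was 0.03 over the 10 genes and -0.15 over all genes tested, so the table as a whole leaned to lower values in Chd8-/- Tregs. Of the genes past a log2 fold change of 1, 30.6% were higher. After quantile normalization this was 48.2%, and after setting the library medians equal 45.9%.

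In WT Tregs the order of mean levels was Ccnd2, Cdk6, Rb1, Cdk4, Ccne1, Ccnd3, Cdk2, E2f1, Ccnd1 and Ccne2. Neighbours in this order did not overlap between libraries except for Ccne1 with Ccnd3, Cdk2 with E2f1 and E2f1 with Ccnd1. The order of close neighbours is uncertain, since it rests on gene lengths that are not given in the sources used here. Rb1, for example, has 6420 exon bases over all its transcripts and 4656 over the curated ones. In Chd8-/- Tregs Cdk6 stood first at a mean of 298 TPM, above Ccnd2, and Ccnd1 stood last at 2.25 TPM, below Ccne2. Cdk4 stood above Rb1, and the single pair of neighbours that overlapped was E2f1 with Cdk2. Levels ran from the 20th percentile of genes tested (Ccne2) to the 93.7th (Ccnd2) in WT, and from the 15.4th (Ccnd1) to the 97.2nd (Cdk6) in Chd8-/- Tregs. Reads recovered from the TPM values, approximate since they rest on RefSeq exon lengths, ranged from 48 for Ccnd1 in Chd8-/- replicate 1 to 22431 for Cdk6 in the same library.

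**Figure D1:**
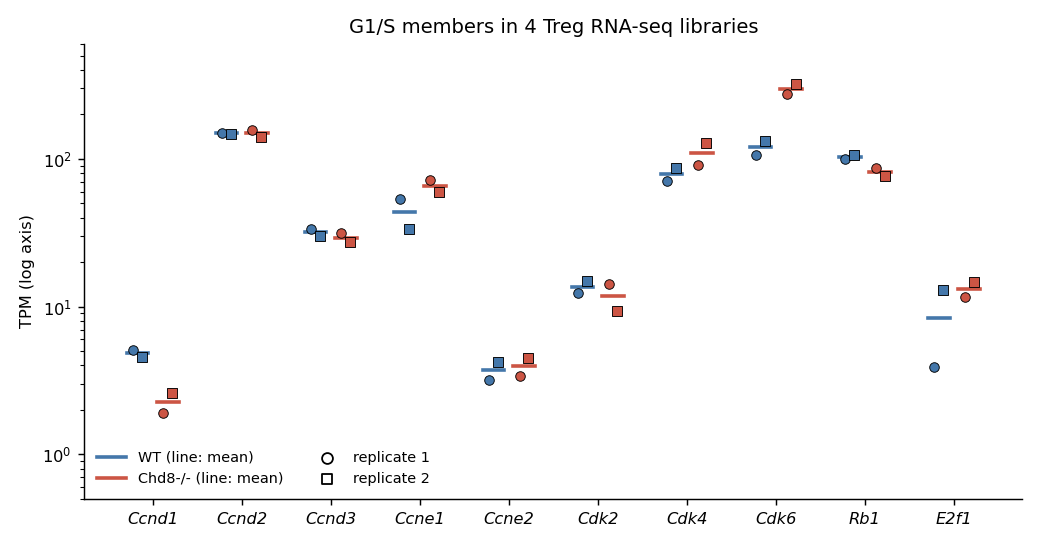
TPM (log axis) of the 10 genes in 2 WT (blue) and 2 Chd8-/- (red) libraries, with circles for replicate 1, squares for replicate 2 and lines at the mean of each genotype. Cdk6 lay between 274.9 and 321.8 TPM in Chd8-/- and between 107.0 and 132.1 TPM in WT libraries, and Ccnd2 lay between 141.1 and 157.1 TPM in all 4.

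Ccnd2, the most abundant D-type cyclin in these cells, did not separate the genotypes. Its levels were 150.5 and 148.5 TPM in WT and 157.1 and 141.1 TPM in Chd8-/- libraries, so the Chd8-/- values enclosed the WT values. The log2 fold change was -0.01 (SE 0.17, 95% interval -0.47 to 0.46, adjusted p = 0.994, limma), and its sign turned after the library medians were set equal (0.17) and with single libraries left out. Ccnd2 lies at chr6:127125162-127152188 on the minus strand, and no other annotated exon overlaps its exons.

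Ccnd3, which is needed for the expansion of immature T cells, was listed at 33.8 and 30.0 TPM in WT and 31.5 and 27.2 TPM in Chd8-/- libraries. The genotypes overlapped (log2 fold change -0.12, SE 0.24, 95% interval -0.77 to 0.54, adjusted p = 0.887, limma), and the sign turned after the medians were set equal (0.06). Of its exon bases (chr17:47505051-47599689, plus strand), 14.3% overlap Bysl on the other strand. Whether the counting used strand is not given in the sources used here, so the reads of such pairs cannot be told apart.

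Ccnd1, the D-type cyclin that many growth factor signals induce outside lymphocytes, was low in each library and lower in the Chd8-/- libraries. Its levels were 5.1 and 4.6 TPM in WT and 1.9 and 2.6 TPM in Chd8-/- libraries, with no overlap. The mean was 4.85 ± 0.354 TPM in WT and 2.25 ± 0.495 TPM in Chd8-/- Tregs (SD, n = 2 each). Its log2 fold change of -0.86 (SE 0.39, 95% interval -1.91 to 0.20) did not pass the test (adjusted p = 0.553, limma). About 94 and 90 reads in WT and 48 and 52 reads in Chd8-/- libraries stood behind these levels. Their exact Poisson 95% intervals, for counting error only, ran from 3.71 TPM upward in WT and up to 3.43 TPM in Chd8-/-, and did not meet. The gene (chr7:144929931-144939831, minus strand) shares 21.7% of its exon bases with LTO1 on the other strand.

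As a share of the summed D-type cyclin TPM, Ccnd2 made 79.5% and 81.1% in WT and 82.5% and 82.6% in Chd8-/- libraries. Ccnd3 made 17.8% and 16.4% in WT and 16.5% and 15.9% in Chd8-/-. Ccnd1 made 2.69% and 2.51% in WT and 0.997% and 1.52% in Chd8-/-, without overlap. The sum itself overlapped between the genotypes, at 189.4 and 183.1 TPM in WT and 190.5 and 170.9 TPM in Chd8-/- libraries.

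Cdk6, the kinase partner of D-type cyclins that is most used in blood cells, had the largest difference of the 10 genes. Its levels were 107.0 and 132.1 TPM in WT and 274.9 and 321.8 TPM in Chd8-/- libraries. Both Chd8-/- values exceeded both WT values, and the gap between the genotypes was wider than the gap between the mice of either. The mean was 120 ± 17.7 TPM in WT and 298 ± 33.2 TPM in Chd8-/- Tregs (SD, n = 2 each), a fold of 2.49 on the scale of TPM + 1. As a log2 fold change this was 1.32 (SE 0.20, 95% interval 0.76 to 1.87), rank 470 from the top of 15240 genes. After adjustment over all genes it did not pass (adjusted p = 0.373, limma). Leaving out single libraries gave values from 1.16 to 1.47, and the value was 1.24 after quantile normalization and 1.49 with equal medians. Chd8-/- replicate 1, with the lowest summed myeloid and erythroid markers of the 4 libraries, and replicate 2, with the highest, were both above WT. Whether these markers bear on the level of Cdk6 was not tested. About 6314 and 8264 reads in WT and 22431 and 20535 reads in Chd8-/- libraries stood behind the levels. The annotated gene spans chr5:3341004-3531008 on the plus strand, and 0.6% of its exon bases overlap the predicted gene Gm36470.

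Cdk4, the other partner of the D-type cyclins, was listed at 71.4 and 86.7 TPM in WT and 91.1 and 128.5 TPM in Chd8-/- libraries. The genotypes did not overlap, but Chd8-/- replicate 1 was closer to WT replicate 2 than to its own fellow. Its log2 fold change was 0.45 (SE 0.26, 95% interval -0.25 to 1.16, adjusted p = 0.613, limma) and ranged from 0.21 without Chd8-/- replicate 2 to 0.70 without Chd8-/- replicate 1. Cdk4 lies at chr10:127063535-127067288 on the plus strand and shares 2 exon bases with Tspan31.

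The ratio of Cdk6 to Cdk4 TPM was 1.50 and 1.52 in WT and 3.02 and 2.50 in Chd8-/- libraries. The difference in this ratio was 1.25, and between 0.993 and 1.51 with each library left out. Cdk4 and Cdk6 together gave 178.4 and 218.8 TPM in WT and 366.0 and 450.3 TPM in Chd8-/- libraries. Set against that sum, the D-type cyclins amounted to 1.06 and 0.837 TPM per TPM of kinase in WT, and to 0.520 and 0.380 in Chd8-/-. This ratio did not overlap either, but it restates the kinase values, since the cyclin sums overlapped between the genotypes. With 2 libraries per genotype an exact permutation test cannot give a two-sided p below 0.333, so none was run on these ratios.

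**Figure D2:**
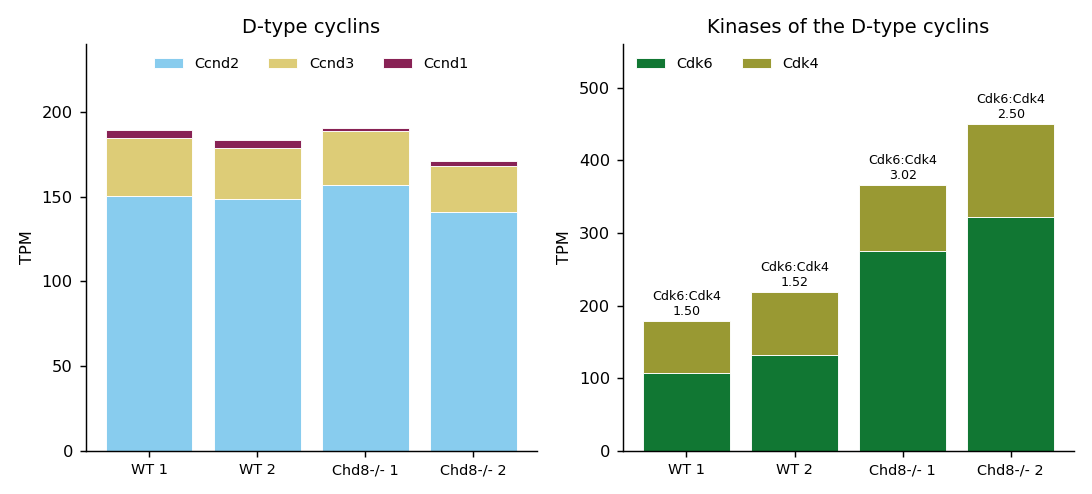
Stacked TPM of the D-type cyclins (left) and of Cdk4 and Cdk6 (right) in each library, with the ratio of Cdk6 to Cdk4 printed above the bars of the right panel. The cyclin sums lie between 170.9 and 190.5 TPM in all 4 libraries, and the kinase sums at 178.4 and 218.8 TPM in WT and at 366.0 and 450.3 TPM in Chd8-/-.

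Ccne1, the cyclin that activates CDK2 at the entry into S phase, was listed at 53.6 and 33.4 TPM in WT and 72.2 and 59.6 TPM in Chd8-/- libraries. Both Chd8-/- libraries were above WT, by less than the gap between the WT mice for the nearest pair. The mean was 43.5 ± 14.3 TPM in WT and 65.9 ± 8.91 TPM in Chd8-/- Tregs (SD, n = 2 each). The log2 fold change was 0.62 (SE 0.32, 95% interval -0.23 to 1.47, adjusted p = 0.582, limma), with 0.29 without WT replicate 2 and 0.95 without WT replicate 1. No other annotated exon overlaps Ccne1 (chr7:38097984-38107490, minus strand).

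Ccne2, the second E-type cyclin, was low in each library, at 3.2 and 4.2 TPM in WT and 3.4 and 4.5 TPM in Chd8-/- libraries. The genotypes overlapped (log2 fold change 0.07, SE 0.40, 95% interval -1.003 to 1.15, adjusted p = 0.965, limma), and the sign turned without WT replicate 1 or without Chd8-/- replicate 2. Between 52 and 79 reads stood behind each level. Of its exon bases (chr4:11190433-11204779, plus strand), 52.3% overlap Ints8 on the other strand, so its level is uncertain.

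Ccne1 made 94.4% and 88.8% of the summed E-type cyclin TPM in WT and 95.5% and 93.0% in Chd8-/- libraries. Cdk2, the kinase that both E-type cyclins activate, was listed at 12.4 and 14.9 TPM in WT and 14.2 and 9.4 TPM in Chd8-/- libraries. The Chd8-/- values extended below WT and overlapped it (log2 fold change -0.22, SE 0.35, 95% interval -1.17 to 0.74, adjusted p = 0.856, limma). The value was 0.06 without Chd8-/- replicate 2, so its sign rested on that library. Per TPM of Cdk2 (chr10:128697938-128705051, minus strand, no exon overlap), the E-type cyclins gave 4.58 and 2.52 TPM in WT and 5.32 and 6.82 TPM in Chd8-/- libraries, without overlap.

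Rb1, which encodes the pocket protein that the cyclin-CDK complexes phosphorylate, was somewhat lower in both Chd8-/- libraries. Its levels were 99.8 and 105.7 TPM in WT and 87.4 and 76.2 TPM in Chd8-/- libraries, with no overlap. On the log2 scale the difference was -0.33 (SE 0.19, 95% interval -0.85 to 0.19, adjusted p = 0.622, limma), against the median of -0.15 over all genes, and it was -0.15 after the library medians were set equal. Rb1 lies at chr14:73192858-73325951 on the minus strand.

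E2f1, an activator among the E2F factors and itself an E2F target, varied more between the WT mice than between the genotypes. Its levels were 3.9 and 12.9 TPM in WT and 11.6 and 14.7 TPM in Chd8-/- libraries, so WT replicate 1 was low and the other 3 libraries lay together. About 59 and 207 reads stood behind the WT levels, with exact Poisson 95% intervals of 2.97 to 5.03 and 11.2 to 14.8 TPM, so counting error does not span the gap between the WT mice. The log2 fold change was 0.77 (SE 0.61, 95% interval -0.86 to 2.40, adjusted p = 0.700, limma). It was 0.02 without WT replicate 1 and 1.52 without WT replicate 2, so the difference rested on WT replicate 1. E2f1 lies at chr2:154559400-154569892 on the minus strand and shares 7 exon bases with Necab3.

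**Figure D3:**
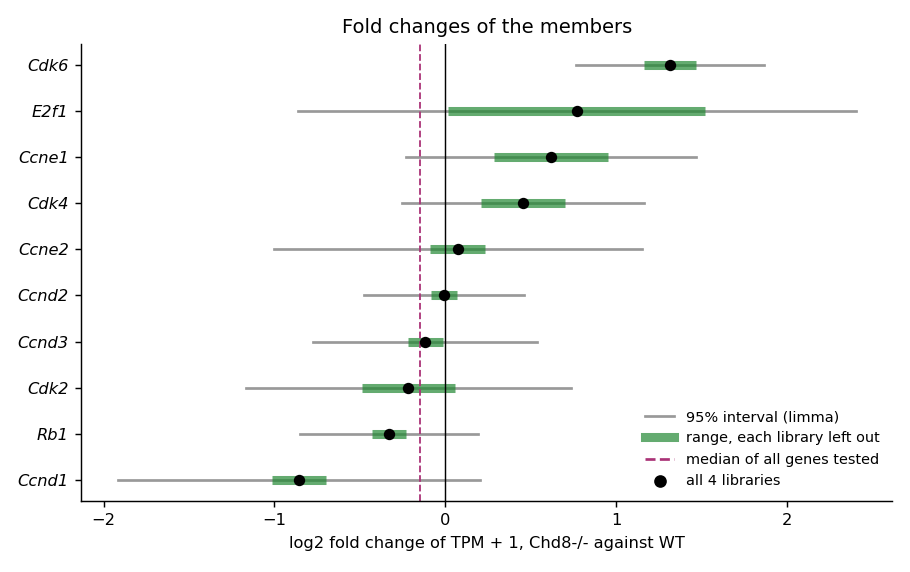
Log2 fold change of TPM + 1, Chd8-/- against WT, of each of the 10 genes (black points), with the 95% limma interval (grey), the range over fits that omit a single library (green) and the median of all genes tested (dashed line). The interval of Cdk6, 0.76 to 1.87, lies above 0, and those of the other 9 genes include 0.

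The other genes of the pathway were described by lists, beside the median of -0.15 over all genes tested, and no member of any list was called. Counts of list genes higher or lower in both Chd8-/- libraries stand against 14.8% and 27.8% of all genes tested. Of 11 other pocket proteins, E2F and DP partners, 1 was higher and 3 were lower in both Chd8-/- libraries, close to those shares, and the list median was 0.03, with 0.22 without Chd8-/- replicate 2 and -0.25 without Chd8-/- replicate 1. E2f4, a repressor that works with the pocket proteins, was listed at 103.2 and 84.6 TPM in WT and 62.6 and 44.5 TPM in Chd8-/- libraries (log2 fold change -0.81, adjusted p = 0.467, limma). E2f2, an activator, was listed at 23.6 and 26.5 TPM in WT and 13.7 and 20 TPM in Chd8-/-. E2f5, a repressor, was higher in both, at 12.2 and 13.9 TPM in WT and 17.9 and 18 TPM in Chd8-/-.

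Among 7 CDK inhibitors, 4 passed the filter, of which 2 were higher in both Chd8-/- libraries and 0 lower, with a median of 0.33 that became 0.22 without Chd8-/- replicate 2. Cdkn1a had a log2 fold change of 7.09 (SE 0.31) on the log2(TPM + 1) scale and did not pass the test, with the smallest adjusted p of the table (0.0807, limma). That value depends on the pseudocount, at 8.93 with 0.1 TPM and 5.05 with 5 TPM, since about 5 reads stood behind both WT values together. The ratio of the mean TPM was 682, with an exact Poisson 95% interval of 292 to 2099 for the counting error of the WT reads. Cdkn2c, which encodes p18 and binds CDK4 and CDK6, was listed at 9.9 and 7.9 TPM in WT and 12.5 and 13.2 TPM in Chd8-/- libraries. Cdkn1c, Cdkn2a and Cdkn2b did not pass the filter and lay between 0 and 2.9 TPM in the 4 libraries.

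Of 5 genes that control CDK activity, 0 were higher and 2 lower in both Chd8-/- libraries, with a median of -0.23. The list holds Wee1, whose kinase inhibits CDKs, and the median was its value. The median was 0.03 without WT replicate 1 and after quantile normalization. The 2 were both parts of the CDK-activating kinase. Cdk7, its catalytic subunit, was listed at 46.1 and 41.8 TPM in WT and 28.9 and 21.3 TPM in Chd8-/- libraries (log2 fold change -0.80, adjusted p = 0.471, limma). Ccnh, its cyclin, was listed at 31.8 and 37.0 TPM in WT and 27.2 and 24.5 TPM in Chd8-/-.

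Of 10 names for the turnover of G1 cyclins and p27, 9 were listed and tested, with 1 higher and 3 lower in both Chd8-/- libraries, close to the shares of all genes, and a median of -0.0045 that was -0.25 without WT replicate 1. Cks1b, which SKP2 needs to recognise p27, was listed at 64.3 and 101.1 TPM in WT and 55.6 and 19.6 TPM in Chd8-/- libraries (log2 fold change -1.26, adjusted p = 0.553, limma, and -0.53 without Chd8-/- replicate 2). Usp28, a deubiquitinase, was at 6.3 and 6.0 TPM in WT and 2.2 and 3.2 TPM in Chd8-/-. Gsk3b, whose kinase marks cyclin D1 for destruction, was at 52.0 and 53.5 TPM in WT and 58.1 and 56.0 TPM in Chd8-/-.

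Of 8 regulators that act upstream of the G1 cyclins, 2 were higher and 3 lower in both Chd8-/- libraries, with a median of 0.13. It was 0.0045 without WT replicate 1 and 0.02 without Chd8-/- replicate 2. Jun, an AP-1 factor, was listed at 4.7 and 10.4 TPM in WT and 20.1 and 29.3 TPM in Chd8-/- libraries (log2 fold change 1.65, adjusted p = 0.446, limma). Foxo1, which holds T cells in quiescence and restrains D-type cyclins in other cells, was at 357.8 and 368.8 TPM in WT and 210.8 and 189.3 TPM in Chd8-/- (log2 fold change -0.86, adjusted p = 0.402, limma). Foxo3 was at 50.3 and 66.9 TPM in WT and 50 and 39.9 TPM in Chd8-/-, and Stat5a, a mediator of interleukin-2 signals, at 20.4 and 20 TPM in WT and 23.4 and 31.7 TPM in Chd8-/-.

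Downstream of E2F, 12 of 24 genes of DNA replication were higher in both Chd8-/- libraries, against 14.8% of all genes tested, and 1 was lower, against 27.8%. The list median was 0.27 and ranged from 0.20 to 0.44 over the alternatives, of which 6 moved it by more than the spread between libraries. With Chd8-/- replicate 1 alone, 13 of the 24 were above both WT libraries (32.5% of all genes tested), and with replicate 2 alone 15 (28%). Rrm1, a subunit of ribonucleotide reductase, was listed at 40.2 and 74.6 TPM in WT and 103.7 and 104.5 TPM in Chd8-/- libraries (log2 fold change 0.91, adjusted p = 0.498, limma). Gins2 was at 27.3 and 25.0 TPM in WT and 36.2 and 94.8 TPM in Chd8-/-, whereas Gins1, of the same replication complex, was at 17.3 and 12.2 TPM in WT and 8.1 and 1.6 TPM in Chd8-/-. Without Chd8-/- replicate 2 the log2 fold change of Gins2 was 0.46 in place of 1.14, and that of Gins1 -0.77 in place of -1.68.

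**Figure D4:**
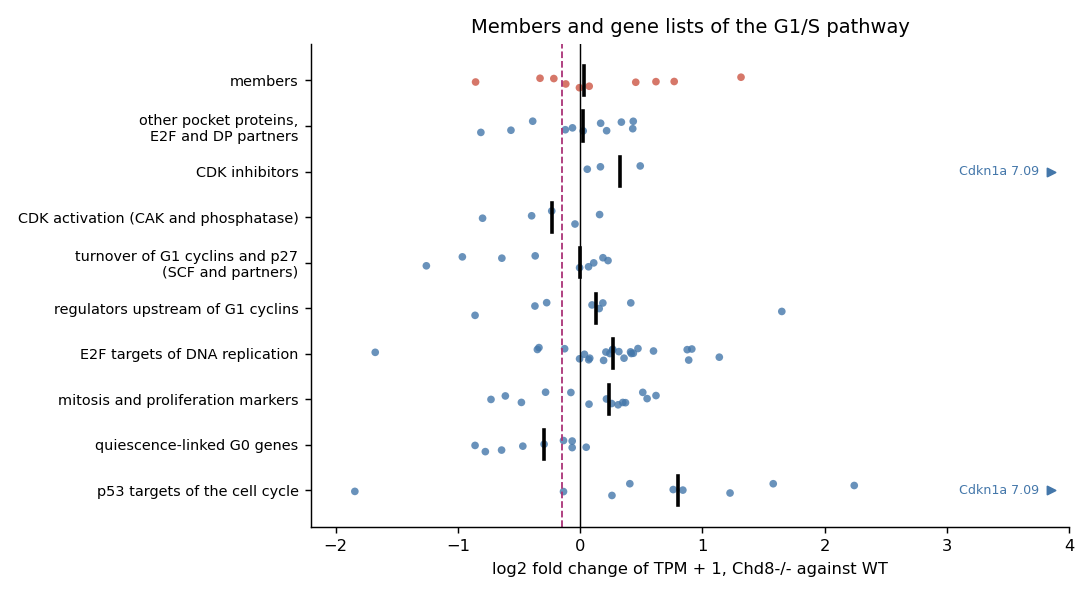
Log2 fold change of TPM + 1, Chd8-/- against WT, of the 10 genes (red) and of the tested genes of each list (blue), with black bars at list medians and a dashed line at the median of all genes tested. The replication list has its median at 0.27 and the quiescence list at -0.29, and Cdkn1a, at 7.09, lies beyond the axis and is drawn as an arrow.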

How the data were processed

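RNA-seq of sorted YFP+ Tregs, with 2 WT and 2 Chd8-/- libraries, was used. The authors trimmed reads (Trim Galore 0.4.2, cutadapt 1.9.1), aligned them to mm10 (STAR 2.6.1e), removed duplicates, counted reads on RefSeq genes (featureCounts 1.6.2) and deposited TPM rounded to 0.1. The protocol also names a 10X Genomics assay beside an Illumina RNA-seq kit, and which made these libraries is not given in the sources used here. Genes of at least 1 TPM in 2 or more libraries entered, on the log2(TPM + 1) scale, a limma 3.58.1 fit of Chd8-/- against WT (R 4.3.3, trend, two-sided, Benjamini-Hochberg adjustment over 15240 genes), which understates the fold change of low genes. Calls needed an adjusted p of 0.05 and a log2 fold change of 1. Of the 35869 entries in the table, the 4 under repeated names were dropped.

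Depth was recovered from genes under 200 nt, whose TPM times exon length came in steps of 1 read (97.6 to 98.6% whole). It gave about 9240000 to 13200000 reads on the 32265 genes with a RefSeq length, which hold 80.2 to 86.1% of TPM. Read numbers are approximate, since the RefSeq release is not given in the sources used here, and intervals cover counting error only. P-values rest on the spread between these mice, which limma moderates with that of other genes at similar levels. Sex was not in the fit, so the spread within a genotype includes any difference between the sexes.

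The genes and lists were chosen with earlier results of these data known. Beside the 10 genes, Chd8 and Cdkn1a, the text names from each list up to 2 rises and 2 falls, the largest among genes whose libraries did not overlap between genotypes, and any with an unadjusted p under 0.05 and a log2 fold change of at least 1. Alternatives were pseudocounts of 0.1 and 5 TPM, no filter, a mean of at least 5 TPM, quantile normalization, equal library medians, a replicate block, no trend and each library left out. ATAC and CHIP tables, given on mm39, were not used here, nor were proteins. Scripts ran in Python 3.11.15 (numpy 2.4.6, pandas 2.3.3, scipy 1.17.1, matplotlib 3.10.9) and were tested on simulated data.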

Additional observations from a re-analysis of the deposited data

How the results depend on the processing

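No member was called under any of the 12 alternatives. The number past a log2 fold change of 1 on the higher side was between 1 and 2 with each library left out, 2 without WT replicate 2 (Cdk6 and E2f1), and 1 under each other alternative. On the lower side it was 1 (Ccnd1) with a pseudocount of 0.1 TPM and between 0 and 1 with each library left out, 1 without Chd8-/- replicate 2. Over all genes tested, 0 were called except 2 (Cdkn1a and Mir7649, the latter named after its value was seen) at a mean of at least 5 TPM, a filter that leaves 11351 genes and drops Ccnd1 and Ccne2, and there Cdkn1a had an adjusted p of 0.0347. With equal medians the log2 fold changes of Ccnd2 (0.17) and Ccnd3 (0.061) turned positive. With each library left out, that of Ccnd2 ranged from -0.083 to 0.071, that of Ccne2 from -0.087 to 0.23 and that of Cdk2 from -0.49 to 0.058. The other 6 members kept their direction, with adjusted p for Cdk6 between 0.204 and 0.971. Same-numbered libraries did not deviate together (correlation of deviations -0.0117), and no label says that a number marks a shared litter. With a replicate block, the pairing of equal numbers, 0 genes and 0 members were called and the smallest adjusted p was 0.552, with 1 member past the fold change on the higher side and 0 on the lower. Of 108 list medians under the alternatives, 22 moved by more than the spread between libraries, 6 of them medians of the replication list. The median of the pocket proteins, E2F and DP partners ranged from -0.25 to 0.27. The ATAC alternatives were not run. With 2 mice per genotype, the 95% intervals of the low genes Ccnd1, Ccne2 and E2f1 span over 2 log2 units.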

Other observations

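Lists further from the G1/S switch gave these values. Of 14 mitosis and proliferation markers, 3 were higher and 2 lower in both Chd8-/- libraries, against 14.8% and 27.8% of all genes tested, with a median log2 fold change of 0.24. The median was 0.029 without WT replicate 1 and 0.10 without Chd8-/- replicate 2. With Chd8-/- replicate 1 alone, 3 were above and 4 below both WT libraries (32.5% and 38.7% of all genes tested). With replicate 2 alone, 8 were above and 4 below (28% and 52.7% of all genes tested). Cdk1, the mitotic kinase, was listed at 9.3 and 17.0 TPM in WT and 17.8 and 22.3 TPM in Chd8-/- libraries, and Top2a at 42.0 and 48.7 TPM in WT and 51.7 and 66.8 TPM in Chd8-/-. Ccnb2, a partner of CDK1, was lower in both, at 49.8 and 47.0 TPM in WT and 28 and 29.6 TPM in Chd8-/- (log2 fold change -0.73, adjusted p = 0.455, limma), as was Plk1 at 21.8 and 19.1 against 11.5 and 14.7 TPM.

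Of 9 tested genes linked to quiescence, 0 were higher and 4 lower in both Chd8-/- libraries, against the same shares of all genes, with a median of -0.29. Klf2, which maintains naive T cells at rest, was listed at 158.8 and 164.5 TPM in WT and 90.0 and 98.2 TPM in Chd8-/- libraries (log2 fold change -0.78, adjusted p = 0.409, limma). With replicate 1 of the Chd8-/- libraries alone, 4 of the 9 were above and 4 below both WT libraries (32.5% and 38.7% of all genes tested), and with replicate 2 alone, which has high myeloid and erythroid markers, 0 were above and 8 below (28% and 52.7% of all genes tested).

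Of 10 p53 targets that act on the cell cycle, 7 were higher in both Chd8-/- libraries (14.8% of all genes tested) and 1 was lower (27.8%), with a median of 0.80. The median was 0.60 without WT replicate 1 and 1.05 without WT replicate 2. Besides Cdkn1a, Sesn2 was listed at 2.7 and 11.1 TPM in WT and 43.9 and 21.3 TPM in Chd8-/- libraries, and Zmat3 at 24.4 and 17.8 TPM in WT and 68.3 and 36.7 TPM in Chd8-/-. Sesn1, a sestrin like Sesn2, was at 159.0 and 166.2 TPM in WT and 59.8 and 33.2 TPM in Chd8-/- (log2 fold change -1.84, adjusted p = 0.402, limma).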
